A study of Homo sapiens with 48 samples.

Results

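Transcript levels of THP-1 macrophages labelled as exposed to fullerene were compared with those of medium controls, once at 6 h and once at 24 h. The samples were taken by their titles: 3 Fullerene 6 h, 6 control 6 h, 3 Fullerene 24 h and 6 control 24 h samples, 18 of the 48 samples of the series. THP-1 is a single established human monocytic leukaemia line, and all 18 samples were of THP-1 cells turned into macrophages with the phorbol ester PMA. Fullerene samples received 100 µg of the material in 1 ml of fresh RPMI medium, and control samples received medium only. The labels used here do not say which fullerene was given, nor whether the samples of a group came from separate cultures, so the p-values below measure the spread between samples, which may be technical. The 6 controls of each time carry one of the codes 1 and 6 in their labels, with 3 samples of each code.

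Fullerenes are closed cages of carbon that form particles in water. Macrophages take up particles by phagocytosis and hold them in the lysosome. Particle exposure of macrophages is known for damage to the lysosomal membrane, for NLRP3 inflammasome activity with release of interleukin-1 beta, for NF-kB driven cytokine and chemokine transcription, and for antioxidant genes driven by NRF2. At the messenger level such responses would be read in genes such as IL1B, TNF, CXCL8, NLRP3 and HMOX1.

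All values are deposited log2 intensities of 45220 array features, each feature being 1 probe spot, with sample medians between 7.68 and 7.70 and a scale that runs from about 6.1 to 16.0. The feature with the highest mean stood for each of 20399 genes. Differences were tested with limma in 1 fit of all 48 samples with dye as a term, and a gene was called at a Benjamini-Hochberg adjusted p under 0.05. Folds are differences of log2 values, Fullerene minus control, with their SE. The SE pools the spread of all groups, and its median over genes was 0.26. Macrophage markers were present: MMP9 lay at 15.54 to 15.98 in Fullerene 6 h and 15.30 to 15.91 in control 6 h samples. The 11 measured macrophage markers averaged 12.79 to 13.03 in Fullerene 6 h and 12.53 to 12.85 in control 6 h samples. None of the marker lists for lymphocytes (9 measured genes), epithelium (6) and fibroblasts (8) held a called gene. The epithelial list averaged 7.41 to 7.52 in Fullerene 6 h and 7.21 to 7.73 in control 6 h samples, and the fibroblast list 7.13 to 7.25 and 7.06 to 7.28, both near the bottom of the scale. The lymphocyte list averaged 8.15 to 8.57 and 7.78 to 8.61. A list of promyelocyte and monoblast genes (9 measured, 0 called) was well above the bottom of the scale. It averaged 10.17 to 11.30 in Fullerene 6 h and 9.89 to 11.00 in control 6 h samples.

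The columns of the value table and their labels appear out of step, which touches every comparison below, and "Fullerene" and "control" here always mean samples so labelled. Smooth marks on the array surface matched best between samples 20 or 40 columns apart for 46 of 48 samples (36 such pairs, median surface r across spots 0.85). The 38 pairs that the labels place on 1 array had a median of -0.08. Deviations of genes from their means correlated at a mean r of 0.63 between samples 20 or 40 columns apart and of -0.01 between samples of 1 labelled group. Fullerene 6 h replicates 2 and 3 are in columns 23 and 43, together with tCNT 6 h replicate 1, a sample labelled for another material, in column 3. Fullerene 6 h replicate 1 is in column 15 and pairs with tCNT 6 h replicate 3 in column 35 at a surface r of 0.97. The surface r between Fullerene 6 h replicates 2 and 3 was 0.79, so they may not be independent. At 24 h, Fullerene replicate 2 shared its surface with control replicate 5 (r = 0.74). No sample was moved to another group.

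At 6 h, 91 of 20399 genes were called between Fullerene and control samples, 0.446% of those tested (limma). Of these, 69 were lower in Fullerene (0.338%) and 22 were higher (0.108%), and 66 and 7 of them differed by at least 2-fold. At an unadjusted p under 0.05 there were 2276 genes (11.2%), 765 lower (3.75%) and 1511 higher (7.41%). The lower genes had large folds, with a median of -1.94, and the higher ones small folds, with a median of 0.82. The counts rest on few samples: 2 genes were called without Fullerene replicate 2, 8 without replicate 3 and 343 without replicate 1, against 57 to 96 when a control was left out. With samples 20 or 40 columns apart as a random block (estimated correlation 0.72), 3 genes were called, of which CLCN3 and RPL13AP3 are among the 91. The adjusted p-values of genes given below are those without this block, and under it no other of the 91 was called. In a fit of only the 3 Fullerene 6 h and 6 control 6 h samples, a setting chosen after seeing the data, 0 genes were called and 2242 had an unadjusted p under 0.05.

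The lower genes are given by role, starting with protein turnover. PSME1, a subunit of the PA28 activator that opens the proteasome, had the largest decrease that met the naming rule. It stood at 13.31, 7.73 and 8.05 in Fullerene 6 h replicates 1, 2 and 3, against 13.30 to 14.20 in the controls (median 13.52). Replicates 2 and 3 were far below every control, while replicate 1 lay within the control range, so the groups overlap. The fold was -3.94 ± 0.77 (SE; limma adjusted p = 0.00992). PSMD2, a subunit of the 19S regulatory particle, had a like order, with 14.34, 11.50 and 10.98 in Fullerene and 14.40 to 15.54 in control samples (median 14.46; fold -2.38 ± 0.51, limma adjusted p = 0.0201). Its replicate 1 lay just under the lowest control. Among 32 measured proteasome genes, PSME1 and PSMD2 were the called ones. Of the whole list 23 lay below 0 and 9 above, with a median of -0.21, beside a median of -0.01 over all genes tested. PSMC1 (-0.60 ± 0.17), PSMC4 (0.65 ± 0.22) and PSME3 (1.74 ± 0.70) did not pass. The assembly chaperone PSMD9, outside the list and named after its values were seen, was called at -1.50 ± 0.31 (limma adjusted p = 0.0127), and its other feature lay at 0.09.

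HARS1, which charges tRNA with histidine, stood at 12.27, 7.90 and 8.21 in Fullerene 6 h samples and at 12.21 to 12.79 in control 6 h samples (median 12.71). Its fold was -3.11 ± 0.62 (limma adjusted p = 0.0104). It was the called gene among 19 measured cytosolic aminoacyl-tRNA synthetases, whose median was -0.02. EIF4A3, the helicase at the core of the exon junction complex that marks spliced mRNA, stood at 13.02, 9.93 and 9.98 in Fullerene and 12.09 to 14.53 in control samples (median 14.08). The low control value of 12.09 belongs to replicate 5, and Fullerene replicate 1 lies above it but below the other 5 controls. EIF4A3 fell by 2.87 (SE 0.53, limma adjusted p = 0.006), and none of the other 11 measured genes of the exon junction and mRNA surveillance list was called.

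EIF3A, the largest subunit of the eIF3 complex that loads mRNA on the small ribosomal subunit, differed in another way. Its values were 13.39, 13.34 and 13.47 in Fullerene samples and 13.83 to 14.78 in the controls (median 14.33). The 3 Fullerene samples were close together and below every control, at a smaller fold of -0.96 ± 0.22 (limma adjusted p = 0.0316). The other 28 measured translation initiation genes were not called, and the list had a median of 0.02. SMC1A, a cohesin subunit that holds sister chromatids together, had the same form, with 9.38, 9.94 and 9.33 in Fullerene and 11.09 to 11.79 in control samples (median 11.31). SMC1A fell by 1.86 (SE 0.38, limma adjusted p = 0.0122). Its other features, at -0.95 and -0.40, were also below 0 without passing. TRA2A, a splicing activator, stood at 10.39, 9.69 and 10.03 against 11.47 to 12.21 in control samples, a fold of -1.80 ± 0.27 (limma adjusted p = 0.000552). TRA2A, like CLCN3 and FTH1P20 below, was named after its values were seen.

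PHF3, which binds the tail of RNA polymerase II during elongation, and CLCN3, an endosomal chloride and proton exchanger, were low in all 3 Fullerene samples. PHF3 stood at 9.27, 8.19 and 8.42 in Fullerene and at 10.95 to 11.92 in control samples (median 11.48; fold -2.83 ± 0.38, limma adjusted p = 0.00014). CLCN3 stood at 8.25, 7.13 and 7.38 in Fullerene and at 9.38 to 10.32 in control samples (median 9.74; fold -2.22 ± 0.27, limma adjusted p = 2.25e-05). The highest Fullerene value of each gene lay more than 1 log2 unit below its lowest control. GOLGA5, a Golgi tether, and BTG3, an antiproliferative protein, were also low in all 3, at 8.45, 9.51 and 9.83 for GOLGA5 (control 10.88 to 12.46) and at 11.65, 10.00 and 9.04 for BTG3 (control 12.50 to 14.01).

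HSPA1B, an inducible HSP70 gene, was the called member of 14 heat shock chaperone genes. It stood at 11.10, 10.30 and 10.72 in Fullerene and at 11.92 to 12.97 in control samples (median 12.25; fold -1.66 ± 0.33, limma adjusted p = 0.011). Its near-identical copy HSPA1A, measured by 10 features, was not called, with a fold of -0.23 ± 0.42, and probes of the pair may not tell them apart. The same limit holds for features named after FTH1P20 and RPL13AP3, pseudogenes of ferritin heavy chain and of a ribosomal protein. FTH1P20 had a fold of -5.07 ± 0.95 (limma adjusted p = 0.00671), with 15.98, 8.48 and 8.01 in Fullerene and 15.71 to 15.97 in control samples. The controls and Fullerene replicate 1 were at the top of the scale, so the size of that fold cannot be read exactly. RPL13AP3 stood at 14.25, 11.67 and 11.14 in Fullerene and 14.69 to 15.62 in control samples.

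Others of the largest decreases were in genes of other roles. HPS6, needed to form lysosome-related organelles, stood at 11.64, 7.86 and 7.72 in Fullerene 6 h and at 12.21 to 13.21 in control 6 h samples (fold -3.56 ± 0.72, limma adjusted p = 0.0114). TM7SF3, a membrane protein, stood at 12.79, 7.75 and 8.04 in Fullerene and at 12.60 to 13.58 in control samples (fold -3.51 ± 0.70, limma adjusted p = 0.0105). QSER1 stood at 11.25, 7.12 and 7.66 in Fullerene and at 10.95 to 12.09 in control samples. In TM7SF3 and QSER1 replicate 1 lay within the control range, and in HPS6 it lay below it. PCYOX1L stood at 10.68, 7.08 and 8.09 in Fullerene and at 10.86 to 11.60 in control samples. PGLS, the lactonase of the pentose phosphate pathway, stood at 11.17, 9.48 and 10.98 in Fullerene and at 12.55 to 13.97 in control samples (fold -2.52 ± 0.38, limma adjusted p = 0.000552). PGLS was low in all 3 samples.

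**Figure D1:**
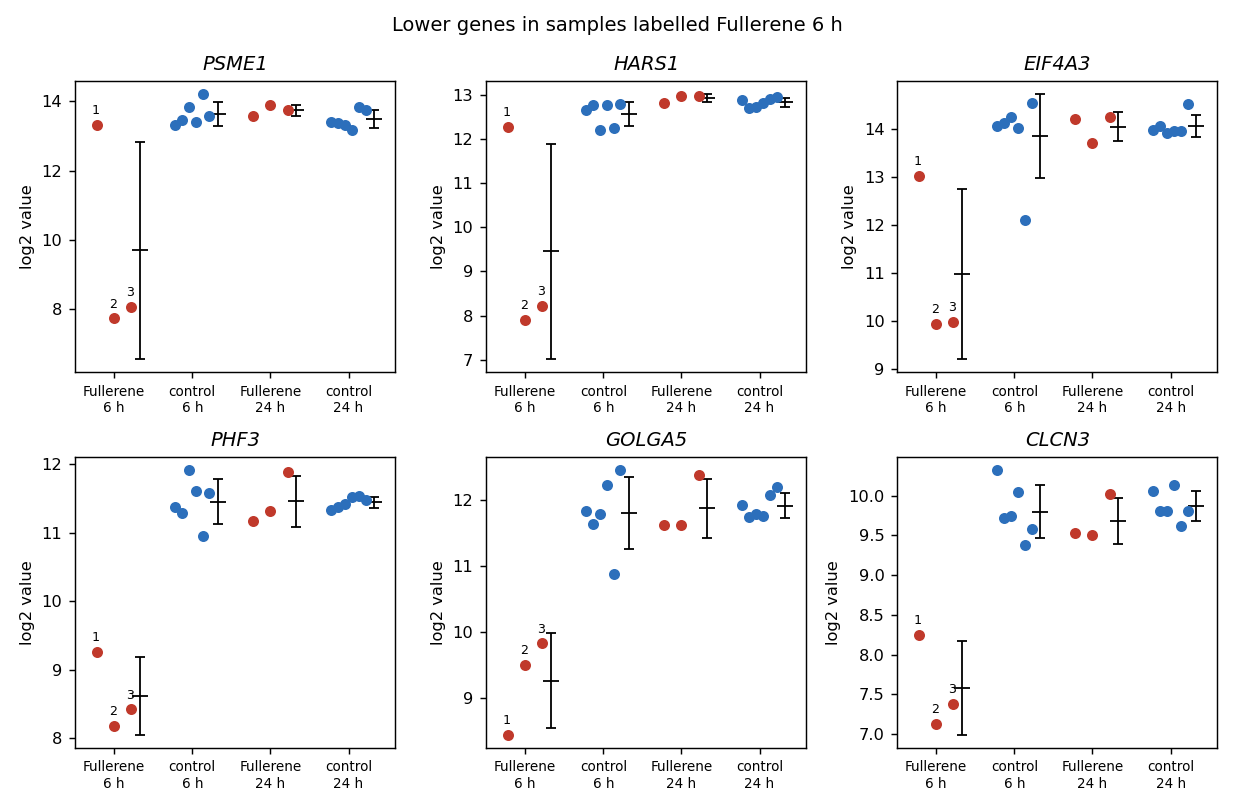
Log2 values (y) of 6 genes lower in Fullerene 6 h samples, by group (x). Each point is 1 sample, digits mark the Fullerene 6 h replicates, and the black bar beside each group is the mean ± SD (n = 3 Fullerene, n = 6 control). PSME1 and HARS1 are low in replicates 2 and 3 only, EIF4A3 most in replicates 2 and 3, PHF3, GOLGA5 and CLCN3 in all 3 replicates, and no gene is low at 24 h.

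Counted over the 69 lower genes, Fullerene replicates 2 and 3 each lay below all 6 controls for 69, and replicate 1 for 36. The 69 were picked by the test on these same values, which favours such separation. At least 2-fold below the control mean were 17 genes in replicate 1, 67 in replicate 2 and 65 in replicate 3. Over all genes tested, the 3 Fullerene samples lay below all controls for 378 genes (1.85%) and above all controls for 675 (3.31%). The samples in the matching columns shared the pattern although they carry another label. For 67 of the 69 lower genes tCNT 6 h replicate 1 also lay below all 6 controls, with PSME1 at 8.17, HARS1 at 8.34 and PSMD2 at 10.96. The sample tCNT 6 h replicate 3 did so for 32 of the 69. Over all genes tested, 1 sample lay below all 6 controls for 20.5% in tCNT 6 h replicate 1 and 9.95% in replicate 3, and for 11.2%, 19.9% and 16.4% in Fullerene 6 h replicates 1, 2 and 3. Among the 69, tCNT 6 h replicate 3 was low, with PHF3 at 8.35, CLCN3 at 8.75 and GOLGA5 at 8.19. It stood at 13.34 for PSME1 and 12.33 for HARS1, as Fullerene replicate 1 did.

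Many of the lower features lay on a few lines of the array. The order of the features repeats every 85 spots (median autocorrelation 0.21 at a lag of 85, 0.20 at 84 and 0.19 at 86), which gives a layout of 85 lines by 532 rows. This layout was inferred from the values. On single features 194 were called at 6 h (0.429% of 45220), 144 lower (0.318%) and 50 higher (0.111%). Of the 144 lower features, 36 were on line 12, 32 on line 35, 11 on line 57 and 8 on line 11. Line 4 also held 8 and line 5 held 7. Lines 11, 12, 35 and 57 held 60.4% of the lower features and 4.71% of all features. These 4 lines were picked as those with the most lower genes in these same data, which favours a high share. The rows alternated: 34 of the 36 on line 12 and all 32 on line 35 were in odd rows, and all 11 on line 57 were in even rows. In genes, 41 of the 69 lower ones were on these lines (59.4%, beside 4.69% of genes tested). PSME1, HARS1, HPS6 and TM7SF3 were on line 11, PSMD2, TRA2B and HSPA1B on line 12, PHF3, CLCN3, GOLGA5, BTG3 and PGLS on line 35, and EIF4A3 on line 57. EIF3A, SMC1A, TRA2A, QSER1 and PCYOX1L were on other lines. Lower features also lay close together off these lines. TRA2A was on line 6 in row 159. Nearby were lower features of BMS1 (line 6, row 163), ZNF433 (line 6, row 164) and KIFBP (line 7, row 164). PCYOX1L (line 40, row 114) lay near a second BMS1 feature (line 40, row 110) and FTH1P20 (line 42, row 108). The share of lower features in such patches was not tested.

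**Figure D2:**
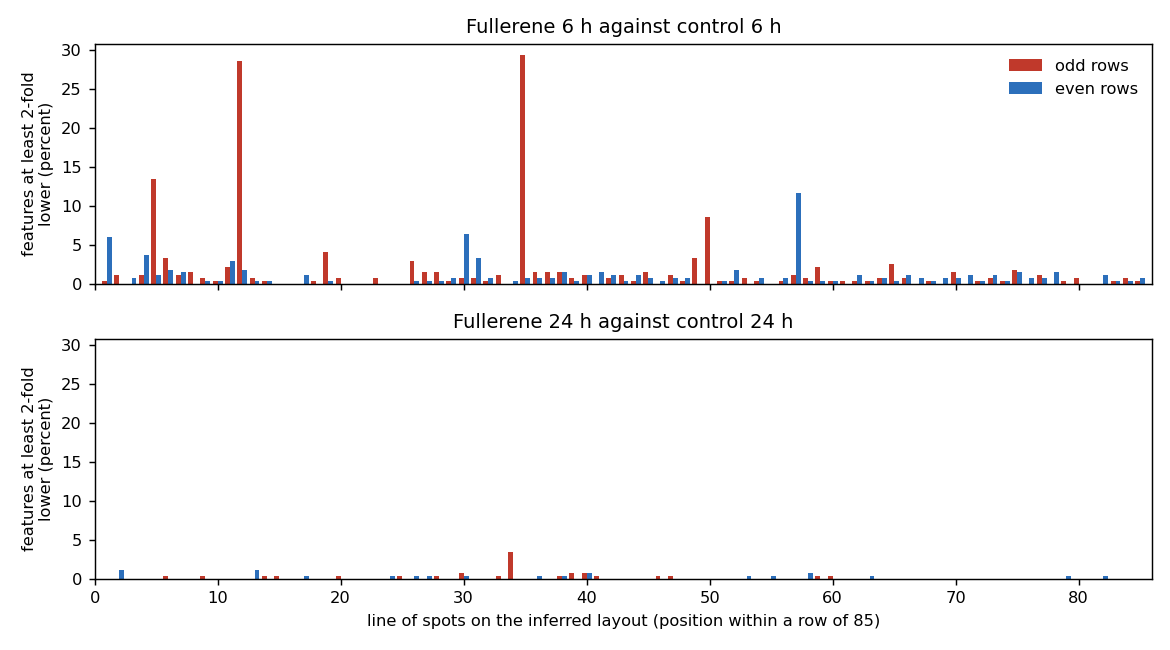
Percent of features at least 2-fold lower (y) on each of the 85 lines of the inferred layout (x), for odd and even rows, at 6 h (top) and 24 h (bottom). At 6 h the odd rows of lines 12 and 35 stand at 28.6% and 29.3%, and at 24 h both are at 0%.

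Lines 35 and 12 were low in the samples of the matching columns, whatever their label. On the odd rows of line 35, taking the 132 features with a median of at least 7.5, the share at least 2-fold below the feature's median over all samples was 53.8%, 56.8% and 53% in Fullerene 6 h replicates 1, 2 and 3. It was 71.2% in tCNT 6 h replicate 3 and 45.5% in tCNT 6 h replicate 1, and the next samples were Graphite 24 h replicate 1 at 35.6% and control 6 h replicate 5 at 30.3%. On the odd rows of line 12 (138 features) it was 65.2% and 68.8% in Fullerene 6 h replicates 2 and 3 and 53.6% in tCNT 6 h replicate 1, with no other sample above 11.6%. The even rows of line 57 had 33.3% and 44.7% in Fullerene 6 h replicates 2 and 3, 27.7% in tCNT 6 h replicate 1 and 25.5% in control 6 h replicate 5. Line 11 was not low as a whole: its even rows had 2.14%, 7.14% and 9.29% in Fullerene 6 h replicates 1, 2 and 3, below the 12.1% of rCNT 24 h replicate 1. The 3 Fullerene 24 h samples had 0%, 1.52% and 0% on line 35 and 0%, 0.725% and 4.35% on line 12. Without the features of lines 11, 12, 35 and 57, a setting chosen after seeing the data, 24 genes were called at 6 h, 15 lower and 9 higher. Of the 41 lower genes on these lines, 11 had a feature elsewhere. The rest were not tested in that setting, so their calls had to be lost.

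**Figure D3:**
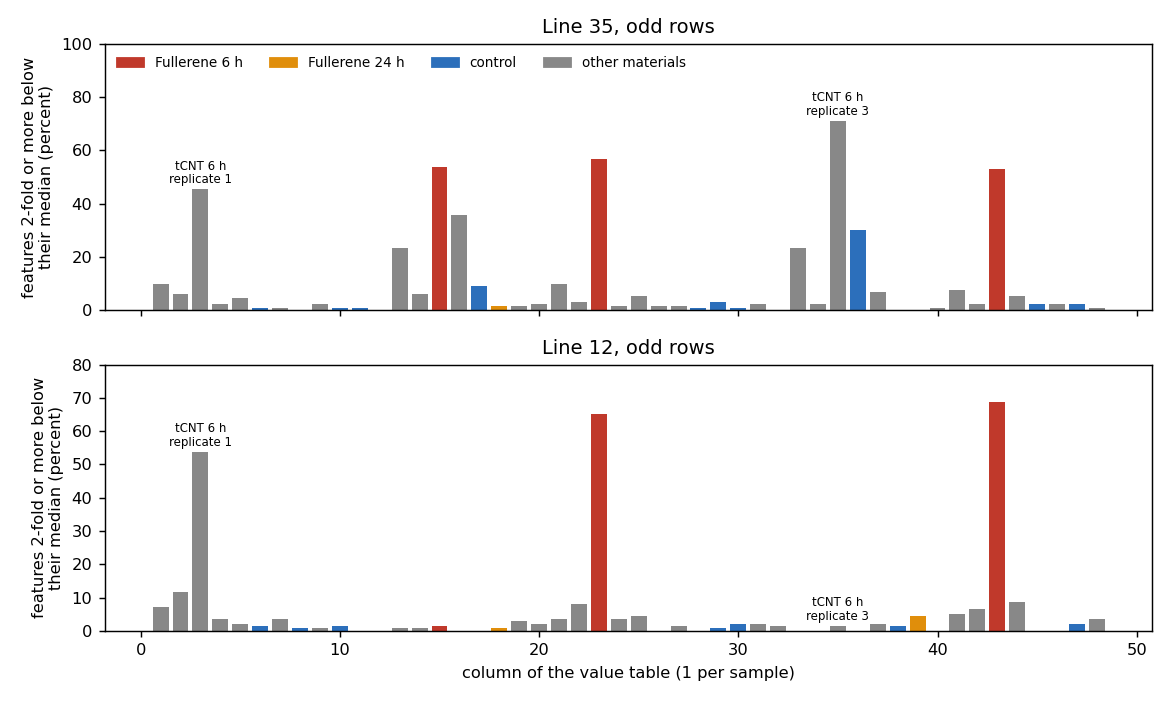
Percent of features at least 2-fold below their median over the 48 samples (y) on the odd rows of line 35 (top) and line 12 (bottom), for each column of the value table (x). Only features with a median of at least 7.5 were taken. Bars are single samples, coloured by label: Fullerene 6 h, Fullerene 24 h, control and other materials. On line 35 the highest 5 bars are the 3 Fullerene 6 h samples and tCNT 6 h replicates 1 and 3, and on line 12 the highest 3 are Fullerene 6 h replicates 2 and 3 and tCNT 6 h replicate 1.

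Genes with several features gave a direct check of the lower calls. PPIA, the abundant cyclophilin A that binds ciclosporin, has 14 features. Its feature on line 35 was called at -3.52 ± 0.42 (limma adjusted p = 1.60e-05), with 12.59, 11.63 and 11.71 in Fullerene and a mean of 15.50 in control samples. The other 13 lay between 0.01 and 0.51, with a median of 0.18. ARPC2, a subunit of the Arp2/3 complex that nucleates branched actin, had its line 35 feature at -3.10 ± 0.38 and 9 others at a median of 0.08. EEF1A1, the factor that delivers aminoacyl-tRNA to the ribosome, had -2.47 ± 0.30 on line 35 and a median of -0.09 over 5 others. The Polycomb subunit gene SUZ12 (-2.91 ± 0.40, others -0.40), WDR82 (-2.89 ± 0.39, others 0.08) and SP110 (-2.59 ± 0.34, others -0.29) had the same order, each with 9 other features. These genes and CSF1R were named after their values were seen. CSF1R, the receptor for macrophage growth factor M-CSF, had its feature on line 12 called at -3.38 ± 0.67 (limma adjusted p = 0.0116), and its 9 others between 0.11 and 0.65.

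Over the lower features, 81 genes had 470 other features, of which 60.4% were below 0, at a median of -0.14 beside -2.07 for the called features. Of the 470, 9 were at least 2-fold lower. At the level of genes, 23 of the 69 lower genes had 34 other features, of which 67.6% shared the sign, at a median of -0.26. Over all genes with several features and a fold below 0, 71.9% of the other features shared the sign of the one that stood for the gene, so the lower genes were near that background. TM7SF3 had its other feature at 0.41, PSMD2 at 0.14 and RPS19 at 0.10. BMS1, a ribosome assembly GTPase, and TRA2B, a splicing activator, were exceptions in part. BMS1 had a second feature called at -1.69 ± 0.39, with 3 more between -0.55 and 0.17. Both called BMS1 features lay near lower features of other genes on the inferred layout, as given above. TRA2B had its other feature at -1.01 ± 0.36, beside -3.55 ± 0.76 for the called one, and its called feature stood at 14.39, 9.10 and 8.92 in Fullerene and 14.01 to 14.74 in control samples.

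**Figure D4:**
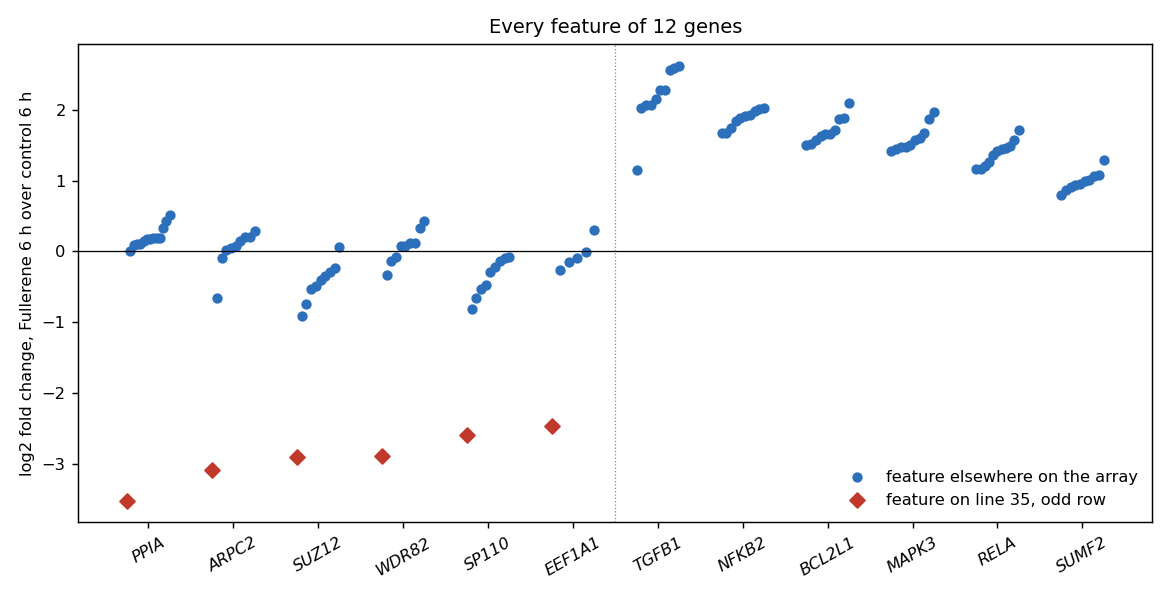
Log2 fold change of every feature (points), Fullerene 6 h over control 6 h (y), for 12 genes (x). In the 6 genes on the left the feature on an odd row of line 35 (diamond) stands apart from all others of its gene, and in the 6 genes on the right all features lie above 0.

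The 22 higher genes had smaller folds. For 17 of the 22 the Fullerene samples lay above all controls, beside 3.31% of all genes tested. The 22 were picked by the test on these same values, which favours such separation. NELFA, part of the NELF complex that holds paused RNA polymerase II near promoters, stood at 10.59, 11.19 and 11.46 in Fullerene 6 h and at 9.02 to 10.30 in control 6 h samples (median 9.51). The groups did not overlap, and NELFA rose by 1.51 ± 0.37 (limma adjusted p = 0.0499), close to the threshold. NELFA and PHF3 were the called members of 19 measured transcription elongation genes, in opposite directions. MBTPS1, the Golgi protease that releases SREBP and ATF6, was even across replicates, with 11.85, 11.93 and 11.85 in Fullerene and 10.54 to 11.12 in control samples (fold 1.03 ± 0.25, limma adjusted p = 0.0481). PPM1M, a phosphatase of the PP2C family, stood at 11.59, 11.88 and 11.39 in Fullerene and 10.18 to 10.91 in control samples (fold 1.17 ± 0.28, limma adjusted p = 0.0443). NUDT3, a hydrolase of diphosphoinositol phosphates, stood at 12.97, 12.73 and 12.88 in Fullerene and 11.84 to 12.27 in control samples (fold 0.83 ± 0.18, limma adjusted p = 0.0168).

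YWHAB, a 14-3-3 adaptor with 10 features, had its called feature at 15.11, 15.29 and 15.98 in Fullerene and 13.89 to 14.82 in control samples (fold 0.91 ± 0.19, limma adjusted p = 0.0124). Its other 9 features lay between 0.02 and 0.71. ANKRD54 had all 11 features above 0, between 0.25 and 0.81, and a second of them was called (0.76 ± 0.15). DFFA, the inhibitor of the nuclease that cuts DNA in apoptosis, had 9 of 10 features above 0. C1orf159 stood at 10.04, 10.01 and 9.71 in Fullerene and 8.20 to 9.20 in control samples. XXYLT1, a xylosyltransferase acting on Notch, stood at 10.20, 9.86 and 10.46 in Fullerene and 8.99 to 9.48 in control samples. MARK2P10, CLDN5, LINC00517, HNF4G and LYPD1 were also called higher, with control means under 7.5, near the bottom of the scale, where small signal differences weigh more. In all, 13 of the 22 higher genes had 48 other features, of which 91.7% lay above 0, at a median of 0.43 beside 0.80 for the called ones. Of these 48, 37 belong to 4 genes with at least 10 features, and the other 9 genes had 11, of which 81.8% lay above 0, at a median of 0.11. Over all genes with several features and a fold above 0, the share was 59.5%. The tCNT samples of the matching columns shared this too: tCNT 6 h replicate 1 lay above all 6 controls for 20 of the 22 genes and replicate 3 for 15, beside 18.0% and 16.1% of all genes tested, with MBTPS1 at 11.64 and 11.72. The 10 samples of other labels in columns 1 to 4, 21 to 24 and 41 to 44, a set that also holds Fullerene 6 h replicates 2 and 3, averaged 11.65 ± 0.35 for MBTPS1, 11.41 ± 0.26 for PPM1M and 10.80 ± 0.40 for NELFA (SD, n = 10). The remaining 35 samples averaged 10.93 ± 0.28, 10.57 ± 0.31 and 9.67 ± 0.43 for the same genes (SD, n = 35). Over the 22 genes, 20 were higher in the 10 than in the 35, by a median of 0.20, so these 3 differ by more than most. Without tCNT 6 h replicate 1 it was 16 of 22, by a median of 0.12.

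Genes whose every feature reached an unadjusted p under 0.05 with 1 sign numbered 69 of the 5896 with several features at 6 h (1.17%), 62 higher and 7 lower, and 1 at 24 h. On single features that level was reached by 10.3% at 6 h, of which those in the higher direction made 6.57% of all features, and by 0.694% at 24 h. TRA2B, PPM1M and MBTPS1 were called among the 69, TRA2B lower and the other two higher. The others that the naming rule gave were SSBP3, PNPLA2, MOSPD3, SAMD4B, COL6A2, ZNF703, SH3BP1, CTBP1, USF2, MARK2 and CANT1, all above 0 and uncalled. SSBP3 stood at 9.07, 11.85 and 12.10 in Fullerene and 8.41 to 8.88 in control samples (fold 2.38 ± 0.89, limma adjusted p = 0.302). PNPLA2, the lipase that starts the breakdown of stored fat, stood at 9.90, 11.91 and 11.27 in Fullerene and 8.10 to 9.94 in control samples (fold 1.75 ± 0.76). USF2, a transcription factor, stood at 13.21, 14.41 and 14.16 in Fullerene and 12.32 to 13.25 in control samples (fold 1.13 ± 0.48). In each of these 3 genes replicate 1 lay nearest the controls. The same 10 samples of other labels averaged 11.46 ± 0.44 for SSBP3, 11.48 ± 0.52 for PNPLA2 and 14.36 ± 0.51 for USF2 (SD, n = 10).

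Genes with at least 10 features, 942 in all, were read by the share of their features at an unadjusted p under 0.05. In 27 of them over 50% of the features passed that level at 6 h, all of the 27 with a median above 0, and in 0 at 24 h. They include TGFB1, a cytokine that damps macrophage activation, the NF-kB subunit genes NFKB2 and RELA, the survival gene BCL2L1, the kinase gene MAPK3, the signal transducer STAT3, the TNF receptor gene TNFRSF1A and the actin genes ACTN4 and VASP. These genes were named after their values were seen, and of them DFFA was called in the test of genes. The median over its 10 features put TGFB1 at 11.91, 15.06 and 14.71 in Fullerene 6 h replicates 1, 2 and 3 and at 10.79 to 12.41 in control 6 h samples. NFKB2 stood at 8.54, 11.35 and 10.82 in Fullerene and 8.19 to 9.02 in control samples. RELA stood at 11.07, 12.09 and 12.33 in Fullerene and 10.31 to 10.90 in control samples. Fullerene replicates 2 and 3 were high for each, and replicate 1 lay within the control range for TGFB1 and NFKB2. For 7 of the 27 genes all Fullerene values lay above all controls, beside 3.31% of all genes tested on 1 feature each. The 27 were picked by their p-values at 6 h, which favours such separation. Over the 27 the median difference from the control mean was 0.27 in replicate 1, 1.27 in replicate 2 and 1.13 in replicate 3.

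The same genes also had higher means in samples of other labels that share a set of columns with replicates 2 and 3, some more clearly than others. Columns 1 to 4, 21 to 24 and 41 to 44 hold 10 samples not labelled Fullerene 6 h, and no control. In those 10 samples TGFB1 stood at 14.20 to 15.13 and in the remaining 35 samples at 10.79 to 13.00. NFKB2 stood at 10.41 to 11.81 in the 10 and 7.93 to 9.02 in the 35, and RELA at 11.55 to 12.25 and 10.10 to 11.17. The 10 samples had a higher mean than the 35 for 27 of 27 genes, and their mean lay above the control 6 h mean by a median of 1.00. For 15 of the 27 the lowest of the 10 lay above all 6 h controls. Others overlapped, such as ICAM5 at 7.31 to 10.09 in the 10 and 6.92 to 9.24 in the 35. CD68, a lysosomal macrophage marker, followed the same columns: it stood at 13.01, 14.99 and 15.14 in Fullerene 6 h, at 12.08 to 13.55 in control 6 h, and at 15.13 ± 0.21 (SD, n = 10) in the 10 samples of other labels. It was not called (1.25 ± 0.61, limma adjusted p = 0.448). In Fullerene replicates 2 and 3 the label and the set of columns cannot be told apart.

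**Figure D5:**
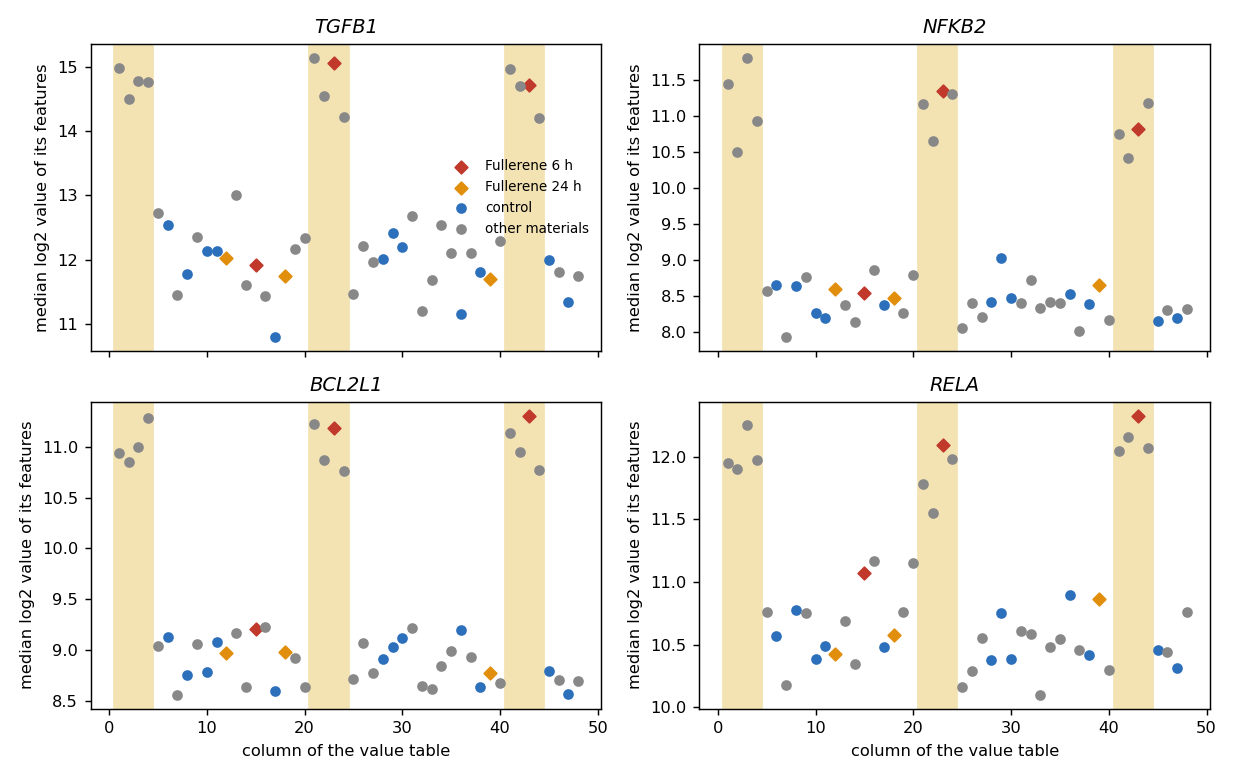
Median log2 value over the features of TGFB1, NFKB2, BCL2L1 and RELA (y) in each column of the value table (x), 1 point a sample. Shaded columns are 1 to 4, 21 to 24 and 41 to 44. Every sample in them is high, 2 labelled Fullerene 6 h and 10 labelled for other materials or times, and Fullerene 6 h replicate 1 in column 15 is not.

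Genes of the pathways known for particle exposure were not called at 6 h on the feature that stood for each. IL1B stood at 15.68, 15.98 and 13.68 in Fullerene 6 h and at 13.71 to 15.98 in control 6 h samples, reaching the top of the scale in both. TNF stood at 11.22, 12.57 and 9.29 in Fullerene and at 7.24 to 13.24 in control samples (median 8.86; fold 1.53 ± 1.05). The neutrophil chemokine gene CXCL8 stood at 14.28, 15.63 and 11.75 in Fullerene and at 9.91 to 15.98 in control samples (fold 0.57 ± 1.16). The controls alone spread over several log2 units in TNF and CXCL8. NLRP3, the inflammasome sensor, was even, with 12.55, 12.50 and 11.95 in Fullerene and 12.09 to 12.92 in control samples. HMOX1, the haem oxygenase induced by NRF2, stood at 14.78, 14.54 and 15.34 in Fullerene and 13.64 to 15.98 in control samples. One of the other HMOX1 features, on line 12, was called on its own at -2.75 ± 0.57 (limma adjusted p = 0.0167), with 14.73, 11.21 and 11.33 in Fullerene and 14.38 to 15.98 in control samples, while the remaining 9 lay between -0.63 and -0.14. CYP1B1, a target of the aryl hydrocarbon receptor, stood at 14.43, 14.43 and 10.83 in Fullerene and 10.56 to 15.97 in control samples.

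Over all genes tested at 6 h, 0.446% were called and 48.6% lay above 0. At that share of calls, 0 called genes in a short list say little about its pathway. By list, 0 of the 14 NF-kB target and feedback genes with a feature were called at 6 h (median 0.33, 10 above 0), 0 of 16 chemokines (median 0.20, 12 above 0), 0 of 14 cytokines (median 0.18) and 0 of 11 inflammasome genes (median 0.04). The NRF2 targets had 0 of 15 called and a median of -0.17, the lysosome and proton pump genes 0 of 18 and 0.10, and the metallothionein and zinc export genes 0 of 9 and -0.06. Actin cytoskeleton and adhesion genes had 0 of 18 called, with 15 above 0 and a median of 0.37. Their list means were 13.29 to 14.54 in Fullerene 6 h and 13.11 to 13.60 in control 6 h samples, and ACTN4, at 13.61 ± 0.42 in the 10 samples of other labels (SD, n = 10), is one of the 27 genes above. Cell division genes had 0 of 24 called, with 20 below 0 and a median of -0.62, and interferon-stimulated genes 0 of 20, with 14 below 0 and a median of -0.42. The mitotic topoisomerase gene TOP2A stood at 9.17, 8.49 and 9.88 in Fullerene and 8.04 to 12.20 in control samples, so the control spread covers the Fullerene values. Cholesterol synthesis, LXR targets, ER stress, p53 targets, autophagy, phagocytic receptors, NADPH oxidase, matrix metalloproteinase, oxidative phosphorylation, glycolysis, immediate early and aryl hydrocarbon receptor lists also held 0 called genes at 6 h.

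At 24 h, 0 of 20399 genes were called between Fullerene and control samples (0.0%, limma, lowest adjusted p 1.00), and 125 had an unadjusted p under 0.05 (0.613%), 70 higher (0.343%) and 55 lower (0.27%). That 0.613% is below the share of 0.05 that p-values would give with no difference, so the SE pooled over all groups may be wide here. The 0 calls thus do not show that no gene differed. A fit of only the Fullerene 24 h and control 24 h samples was chosen after seeing the data. In it 746 genes had an unadjusted p under 0.05 (limma) and 0 were called. The Fullerene samples lay above all controls for 115 genes (0.564%) and below all controls for 108 (0.529%). None of the 69 genes lower at 6 h reached an unadjusted p under 0.05 at 24 h. Their 24 h folds lay between -0.31 and 0.35, with a median of 0.07, and 43 of them were above 0. PSME1 stood at 13.57, 13.88 and 13.75 in Fullerene 24 h and at 13.18 to 13.85 in control 24 h samples. CLCN3 stood at 9.53, 9.51 and 10.02 in Fullerene 24 h and at 9.62 to 10.14 in control 24 h samples. The 22 genes higher at 6 h had 24 h folds between -0.22 and 0.16, with 11 above 0 and 11 below.

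The genes with the lowest unadjusted p at 24 h were mostly dim. GORASP2, a Golgi stacking protein, stood at 12.90, 12.14 and 11.22 in Fullerene 24 h and at 12.36 to 13.24 in control 24 h samples (fold -0.80 ± 0.32). IL13RA1, a chain of the interleukin-13 receptor, stood at 11.84, 11.99 and 10.25 in Fullerene and at 12.03 to 13.27 in control samples (fold -1.24 ± 0.49). IL13RA1 lay below all controls and GORASP2 overlapped them. Both folds lean on replicate 3, without which they were -0.57 for IL13RA1 and -0.34 for GORASP2. FAM9C, LOC646870, KLRA1P, KCNG2, BTN1A1, GDF10, HOXC8 and ABCC8 were the others, with most values under 8. Cytokine genes did not stand apart: TNF was at 8.99, 9.78 and 10.30 in Fullerene 24 h and at 9.32 to 10.91 in control 24 h samples, and IL1B at 15.33, 15.56 and 15.87 and at 14.20 to 15.97. The median fold was -0.16 for NF-kB genes (12 of 14 below 0), -0.39 for chemokines (13 of 16 below 0), -0.19 for cholesterol synthesis genes (13 of 14 below 0) and 0.43 for cell division genes (22 of 24 above 0), with no gene called in any list.

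With the times pooled, each against its own controls, 1 gene was called of 20399 (0.0049%): CLCN3, with a mean fold of -1.20 ± 0.19 (limma adjusted p = 0.00602), carried by the 6 h samples since its fold was -2.22 at 6 h and -0.19 at 24 h. On single features 5 were called (0.0111%), those of CLCN3, ARPC2, EEF1A1, PPIA and RUFY1, all lower and all on line 35. Among genes that were higher with the lowest p, YWHAB stood at 0.51 ± 0.13 and ANKRD54 at 0.48 ± 0.13 without passing. The difference between the times, 24 h minus 6 h, was called for 0 of 20399 genes (0.0%, lowest limma adjusted p 0.0648) and 878 had an unadjusted p under 0.05 (4.3%). It was called for 10 features (0.0221%), of which 9 were on line 35 and the TRA2A feature on line 6. TRA2A is represented by 1 feature, so its other probes cannot be read.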

How the data were processed

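The authors deposited log2 intensities of 48 samples on 20 arrays in 3 dyes. Per the submitters' processing notes R 2.3 and limma were used. The background correction and normalisation are not given in the sources used here. Columns were matched by name, and 0 columns belonged to no sample. Of 45220 features 35268 had 1 gene symbol and 9952 none. Tests used limma 3.58.1 in R 4.3.3: a single fit over the 48 samples, with a coefficient for each of 14 groups and for dye, moderated variances, 32 residual degrees of freedom, and Benjamini-Hochberg adjustment at 0.05 within each contrast. The array number limits precision. The script was tested on simulated data.

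Named genes were the 12 lowest and 12 highest folds among called genes in which each Fullerene sample differed in the called direction from controls of its own time and dye. Added were called list members, 12 called genes with the most features, 12 genes whose features all had an unadjusted p under 0.05, and, with no call, the 5 lowest p in each direction; pathway genes with values stand for their lists. Members and lists were chosen with earlier results of these data known. Title numbers and letters did not pair samples: same-numbered deviations had a mean r of -0.13 (lowest -0.43), same-letter ones of -0.00 (lowest -0.46). Alternatives covered dye, blocks, slide, normalisation, filters, controls and single samples left out.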

Additional observations from a re-analysis of the deposited data

Results flagged for a closer look

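The 24 h minus 6 h difference of the Fullerene effect was called on 10 single features by limma's interaction contrast. It was 3.65 for PPIA, 2.47 for EEF1A1, 2.75 for SP110, 3.00 for ARPC2, 2.74 for RUFY1, 3.06 for SUZ12, 2.96 for WDR82, 2.03 for CLCN3, 2.84 for PHF3 and 1.95 for TRA2A. The first 9 features share line 35 of the inferred layout. In each, the 24 h fold lay between -0.19 and 0.16, and the 3 Fullerene 6 h samples were low.

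Of 120 control groups of 6 samples examined for the named genes, 16 held a sample far from the others, where chance gives about 1 in 20 groups. Control 6 h replicate 5 held 6 of them: EIF4A3 at 12.09, HNF4G at 6.46, ANKRD54 at 10.31, SH3BP1 at 6.88, CTBP1 at 12.51 and CANT1 at 7.61. That sample had a surface SD of 0.52. Of the 23444 features with a median of at least 7.5, 18.0% were at least 2-fold below that median in it. Other 6 h controls were YWHAB at 13.89 in replicate 3, CLDN5 at 7.36 in replicate 4, FAM9C at 8.72 in replicate 1 and PSMD2 at 15.54 in replicate 6. At 24 h, replicate 6 held EIF4A3 at 14.52, MOSPD3 at 12.30 and SH3BP1 at 8.04. The others were SLC7A14 at 7.42 in replicate 5, LYPD1 at 6.73 in replicate 2 and TRA2B at 14.81 in replicate 4.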

How the results depend on the processing

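The 6 h count of 91 genes stayed within 1.5 times without the dye term, with slide as a term, with 2 further normalisations, with the surface component removed, with dim genes left out and with a trended prior. The balance moved: 22 of the 91 were higher, against 42 of 106 with slide as a term, 11 of 102 with the surface removed and 10 of 83 with dim genes left out. The members moved as well in some settings. With the surface removed, 73 of the 102 were among the 91, and 7 of these were higher. With slide as a term it was 80 of the 106, 20 of them higher, and without the dye term 85 of 89. The count was 59 with the mean of all features of a gene, 901 with the Fullerene and control groups alone in the fit (728 higher, 173 lower), 14 against controls of code 1 and 4 against those of code 6. It was 3 with columns 20 or 40 apart as a random block. Chosen after seeing the data, it was 31 with the set of columns as a term, 24 without lines 11, 12, 35 and 57, and 0 with the 9 samples of 6 h alone. Of the 31 genes, 22 were among the 91, and 1 of these was higher. Without samples of surface SD above 0.2 the 6 h count was 925 (521 higher, 404 lower). With the title number as a replicate block it was 1, and with the letter as a replicate block 82; neither pairs the samples. On leaving out 1 sample it ran between 2 and 343. The count over both times, 1 gene (CLCN3), became 0 with the title number as block, with the column block and against either control code. It was also 0 without the 4 lines, but CLCN3 has 1 feature, on line 35, and was not tested there. The same count became 2 with the mean of features and 3 with the surface removed. It was 7 with the Fullerene and control groups alone and 181 without samples of high surface SD. It ran between 0 and 99 without 1 sample. The difference between times, 0 genes, became 4, 8 and 168 with the mean of features, with those groups alone and without samples of high surface SD, and ran between 0 and 105 without 1 sample. Features called at 6 h, 194, became 9 with the column block and 1453 with those groups alone, between 10 and 712 without 1 sample, and over both times, 5, became 0, 15 and, with the surface removed, 10, between 0 and 207. The share of other features with the called sign, 81.7%, ran between 0% (1 other feature) and 84.5% without 1 sample. The 24 h count was 0 in every setting run, which does not show that no gene differed. With the 4 lines left out, another feature stood for 11 of the 41 lower genes on them, and 6 turned: TM7SF3 to 0.41, PSMD2 to 0.14, RMND5A to 0.15, UHMK1 to 0.35, BZW2 to 0.17 and RPS19 to 0.10. The labelled array as a block was not run, its correlation being -0.02. The cause of the other changes was not tested. Signal near the bottom and top of the scale limits what can be read there.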
